A study of Mus musculus with 9 samples.

Results

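The genes of cholesterol synthesis and its control by the transcription factor SREBP2 were examined in the liver of KKAy mice, which become obese and diabetic and serve as a type 2 diabetes model. The set was given as 29 named genes, chosen by function and not by the values of these arrays, and 28 of them had a probe set annotated to that gene alone, of 18193 genes with such a probe set. Acat2, the cytosolic thiolase that starts the pathway, was not analysed here for want of such a probe set. Where a gene had several probe sets the brightest on average over the 9 arrays stood for it, and the 28 genes had 63 probe sets together. Values are log2 signals as deposited, and levels are not compared between genes.

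The study measured 3 groups of 3 Affymetrix arrays each, all from liver of KKAy mice aged 8 weeks. The BI mice received intraperitoneal injections of 100 µL of medium with insulin at 40 µg/mL, of which 11% had been biomineralized in place, and the insulin mice received the same volume and total concentration of plain insulin. The third group is labelled as having no treatment, although the protocol gives the controls an injection of medium alone, and it is called untreated here. The chow held 34% fat, except that the growth protocol of BI replicate 2 describes rats and gives no chow. Groups held 8 to 12 mice per the protocol, but whether each array holds RNA of 1 mouse or of several is not stated. The p-values therefore reflect the scatter of these samples alone, and that scatter may be technical. In whole liver, fewer cells of a type and less RNA per cell cannot be told apart.

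Cholesterol is built from acetyl-CoA through mevalonate, isoprenoid diphosphates, squalene and lanosterol, and the liver is a main site of this synthesis. SREBP2 is held in the endoplasmic reticulum by SCAP together with INSIG1 or INSIG2 while sterols are plentiful. When sterols fall it is carried to the Golgi, cleaved, and moves to the nucleus, where it raises the genes of nearly every enzyme of the pathway. Insig1 is itself a target, whereas liver Insig2 has a transcript that insulin lowers.

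Promoter sequences show what the genes share outside the arrays. RefSeq's table (GRCm38.p6) held a promoter for 23 of the 28 genes, and Fdps, Fdft1, Sqle, Stard4 and Npc1 were not among them. The 250 bases before each annotated start are shown for Hmgcs1, Idi1, Cyp51, Msmo1 and Insig1. Hmgcs1 was the 1 member of these 23 with a match to the letters searched for the sterol regulatory element. Idi1, Cyp51, Msmo1 and Insig1 are members on which the results turn. Sequences run 5′ to 3′ along the gene. Capitals mark the sterol regulatory element (TCACCCCAC) and the CCAAT boxes (CCAAT, or ATTGG on the other strand) in Hmgcs1, the CCAAT boxes in Idi1, Cyp51 and Msmo1, and the CCAAT box and the E-box (CACGTG) in Insig1.
Hmgcs1, chr13:119690101-119690350, plus strand: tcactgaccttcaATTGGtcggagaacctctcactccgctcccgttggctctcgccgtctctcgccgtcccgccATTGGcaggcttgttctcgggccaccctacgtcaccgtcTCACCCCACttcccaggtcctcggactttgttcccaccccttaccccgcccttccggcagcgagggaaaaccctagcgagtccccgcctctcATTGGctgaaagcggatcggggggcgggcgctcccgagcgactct
Idi1, chr13:8885356-8885605, plus strand: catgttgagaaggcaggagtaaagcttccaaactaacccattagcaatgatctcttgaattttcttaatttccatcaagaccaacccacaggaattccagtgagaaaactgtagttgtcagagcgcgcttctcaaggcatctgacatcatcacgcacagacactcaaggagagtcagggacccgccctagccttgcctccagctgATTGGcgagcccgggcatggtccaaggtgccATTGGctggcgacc
Cyp51, chr5:4104698-4104947, minus strand: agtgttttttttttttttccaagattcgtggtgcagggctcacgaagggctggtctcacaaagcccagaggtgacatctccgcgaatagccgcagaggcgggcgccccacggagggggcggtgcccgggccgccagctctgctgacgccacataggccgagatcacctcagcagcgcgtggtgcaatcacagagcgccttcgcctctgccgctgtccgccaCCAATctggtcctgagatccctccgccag
Msmo1, chr8:64733579-64733828, minus strand: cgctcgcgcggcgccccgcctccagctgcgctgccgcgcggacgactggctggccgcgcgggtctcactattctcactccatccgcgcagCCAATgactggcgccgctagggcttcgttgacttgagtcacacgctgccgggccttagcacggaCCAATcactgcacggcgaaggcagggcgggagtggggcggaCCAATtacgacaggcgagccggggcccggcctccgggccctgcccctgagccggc
Insig1, chr5:28071162-28071411, plus strand: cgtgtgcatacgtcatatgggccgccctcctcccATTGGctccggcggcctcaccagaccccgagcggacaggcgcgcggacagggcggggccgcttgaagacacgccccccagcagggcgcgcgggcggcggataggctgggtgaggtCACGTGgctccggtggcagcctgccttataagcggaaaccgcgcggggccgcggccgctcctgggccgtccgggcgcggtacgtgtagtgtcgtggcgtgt
The element TCACNCCAC, where N is any base, was searched on both strands. It was found in 1 of 23 member genes (4.35%), against 1.27% of 14452 measured genes with a promoter in the table. In Hmgcs1 it began 137 bases before the start. A CCAAT box, the letters bound by NF-Y, which acts together with SREBPs, lay in 22 of 23 members (95.7%), against 39.4% of the measured genes. The E-box CACGTG was found in 6 members (Hsd17b7, Dhdds, Insig1, Dhcr7, Sc5d and Scap; 26.1%, against 8.73%) and the GC box GGGCGG in 21 (91.3%, against 53.4%). A gene with several annotated starts counted if any of them had a match, and the letters of these motifs do not contain one another. These matches are descriptions of letters and not of bound sites. Sterol regulatory elements with other letters, or outside these bases, were not searched for, so a member without a match may still have one.

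Across the 9 arrays the members were highest on untreated replicate 3, next on untreated replicate 2, and lower on untreated replicate 1 and the treated arrays. With each gene centred on its own mean, the median of the 28 members was -0.13, -0.11 and -0.15 on BI replicates 1 to 3 and 0.01, -0.22 and -0.20 on insulin replicates 1 to 3 (log2). On untreated replicates 1 to 3 it was -0.14, 0.15 and 0.69. Untreated replicate 1 thus lay among the treated arrays, while untreated replicates 2 and 3 lay above all 6 of them. Untreated replicate 3 had the highest signal of the 9 arrays for 19 of 28 members (67.9%), where it was the highest array for 12.4% of all 18193 genes. It exceeded each other array by more than 0.5 for 10 members (35.7%), as against 1.59% of all genes. Between untreated replicates the median SD of a member was 0.47, while it was 0.21 among BI arrays and 0.22 among insulin arrays. Over 9559 genes with a mean level of at least 7 these SDs were 0.20, 0.16 and 0.16 in the same order.

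**Figure D1:**
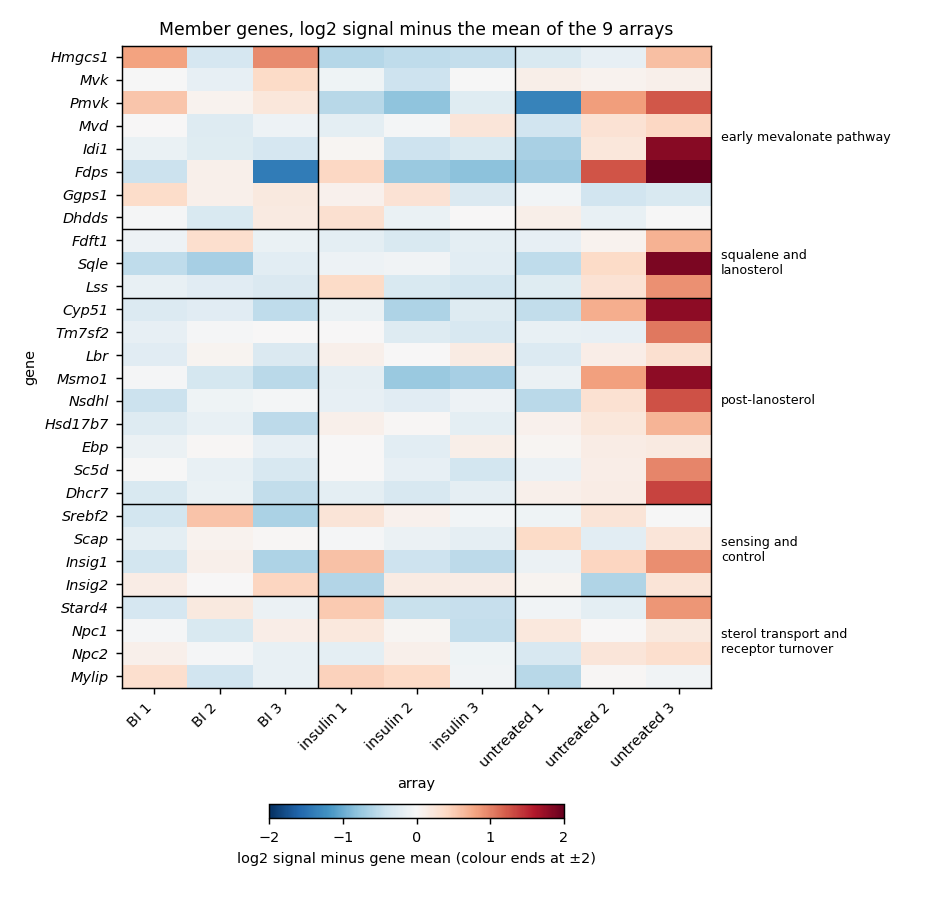
Log2 signal of each of the 28 members on each array (columns, BI left, insulin middle, untreated right) minus the gene's mean over 9 arrays, by role (rows). The column of untreated replicate 3 is the darkest red, with 19 of 28 members at their highest value there.

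Measures of RNA quality and of other cells were set beside this array. For RNA quality, the Gapdh probe set at the 3′ end exceeded the one at the 5′ end by 0.26 to 0.42 on BI arrays, by 0.48 to 0.55 on insulin arrays, and by 0.28, 0.31 and 0.65 on untreated replicates 1 to 3 (log2). Untreated replicate 3 was thus the highest array, and every insulin array lay above every BI array. For Actb the excess was 2.11, on untreated replicate 3, within the range of 1.80 to 2.23 on the others. Hepatocyte markers were measured for 8 of 10 genes, none of them at 0, and their summed linear signal was 264379 to 294207 on BI arrays, 266824 to 292302 on insulin arrays and 261139 to 304370 on untreated arrays. Untreated replicate 3 had the highest sum. It also had the highest sum of 9 stellate cell markers, none of which was at 0 on all arrays. That sum was 10976 to 14747 on BI arrays, 10871 to 14467 on insulin arrays and 10507 to 15106 on untreated arrays. Kupffer cell, endothelial, cholangiocyte, lymphocyte and neutrophil sums of untreated replicate 3 lay within the range of the others. With each gene centred on its own mean, the median of its lymphocyte markers was -0.53, below the others (-0.27 to 0.29). Of these 7 markers 6 lay below the lowest array median (6.11). By the same measure its stellate cell markers were at 0.27, within -0.39 to 0.30, and its hepatocyte markers at 0.12, above -0.12 to 0.10. By group means, endothelial markers were lower for 6 of 9 genes in BI against untreated (median -0.11). In insulin against untreated they were higher for 8 of 9 (0.29). Without untreated replicate 3 they were lower for 3 of 9 with BI (0.17) and higher for 9 of 9 with insulin (0.48). Kupffer cell and macrophage markers were lower for 6 of 10 (-0.07) and higher for 8 of 10 (0.22) in the same comparisons. Without untreated replicate 2 they were higher for 8 of 10 with BI (0.09) and for 9 of 10 with insulin (0.39). Cholangiocyte markers were lower for 4 of 4 in both (medians -0.46 with BI and -0.21 with insulin). Neutrophil markers were lower for 5 of 6 in both (-0.54 and -0.37). Without untreated replicate 2 the counts were 3 of 4 (-0.31 and -0.35) and 3 of 6 (-0.09 and -0.09) in both. Of the cholangiocyte markers 2, and of the neutrophil markers 2, lay below the lowest array median (6.11). In BI against insulin all 10 Kupffer cell and macrophage markers and all 9 endothelial markers were lower (medians -0.28 and -0.34). Without BI replicate 3 the counts were 7 of 10 (-0.09) and 7 of 9 (-0.33). The Kupffer cell sums of the groups overlapped, at 15037 to 28455 on BI arrays and 17730 to 25624 on insulin arrays. The endothelial sums did not, at 5118 to 6782 and 6933 to 8621. The part of any of these in the results was not tested.

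The early mevalonate enzymes split between genes that followed this pattern and genes that did not. Idi1, the isomerase that makes the reactive isoprenoid unit, had 9.37, 9.27 and 9.17 on BI arrays and 9.55, 9.09 and 9.19 on insulin arrays, against 8.85, 9.73 and 11.33 on untreated arrays. The untreated values enclose all treated ones, and the highest is 1.60 above the next array. Fdps, which makes the farnesyl diphosphate that leads to sterols, had 9.51, 10.04 and 8.55 with BI and 10.36, 9.20 and 9.12 with insulin, against 9.23, 11.20 and 12.29 without treatment. Here untreated replicates 2 and 3 lay above every treated array and untreated replicate 1 did not. The log2 difference of Fdps was -1.54 ± 0.80 (SE) in BI against untreated and -1.35 ± 0.80 in insulin against untreated. It had the widest spread of the members in every group, with SDs of 0.76, 0.69 and 1.55 in BI, insulin and untreated liver.

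Pmvk, a kinase of mevalonate phosphate, ranged from 8.01 to 8.50 with BI and from 7.15 to 7.71 with insulin, against 6.61 to 9.19 without treatment. Its BI arrays lay above its insulin arrays (0.81 ± 0.62). Mvd, the decarboxylase that follows, and Mvk, the kinase of mevalonate, had differences of -0.22 ± 0.25 and -0.02 ± 0.20 in BI against untreated. Ggps1, which makes the geranylgeranyl diphosphate used to anchor proteins to membranes, went against the set. It averaged 7.80 ± 0.14 with BI and 7.60 ± 0.29 with insulin, against 7.32 ± 0.18 without treatment (SD, n = 3 each), and its BI arrays lay above its untreated ones. A second Ggps1 probe set was lower with insulin than without treatment, so its probe sets do not give 1 direction. Dhdds, a subunit of the enzyme that makes dolichol precursors, stood at -0.03 ± 0.20 in BI against untreated.

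Hmgcs1, the synthase that makes HMG-CoA ahead of mevalonate, had a pattern of its own. It stood at 12.84, 11.71 and 12.99 on BI arrays and at 11.47, 11.53 and 11.58 on insulin arrays, against 11.74, 11.89 and 12.65 on untreated arrays. Each BI array was above each insulin array, and BI replicates 1 and 3 were the highest of the 9. In BI against insulin the log2 difference was 0.99 ± 0.39 (95% interval 0.08 to 1.89), an unadjusted p of 0.0359 and an adjusted p of 1.00 in limma. The 3 other bright Hmgcs1 probe sets gave 0.75 ± 0.38, 1.44 ± 0.54 and 1.03 ± 0.28. In the first of them untreated replicate 3 was the highest array, at 12.74, above BI replicates 1 and 3 (12.35 and 12.54). In all 3 the BI and insulin groups again did not overlap. The Gapdh measure of RNA quality and the summed endothelial markers also separated these groups. Kupffer cell markers were lower with BI by their means, but their sums overlapped. The part of any of these in the Hmgcs1 difference was not tested. BI replicate 2, the array with the odd growth protocol, had the lowest of the BI values, and without it the difference of the brightest probe set was 1.39 ± 0.30 (adjusted p 0.620). In insulin against untreated Hmgcs1 was at -0.57 ± 0.39 (-0.29 ± 0.39 without untreated replicate 3). In BI against untreated it was at 0.42 ± 0.39, and at 0.82 ± 0.30 without BI replicate 2. Leaving out BI replicate 1 or 3, which had the highest values, makes the differences of BI from insulin and from untreated smaller instead.

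**Figure D2:**
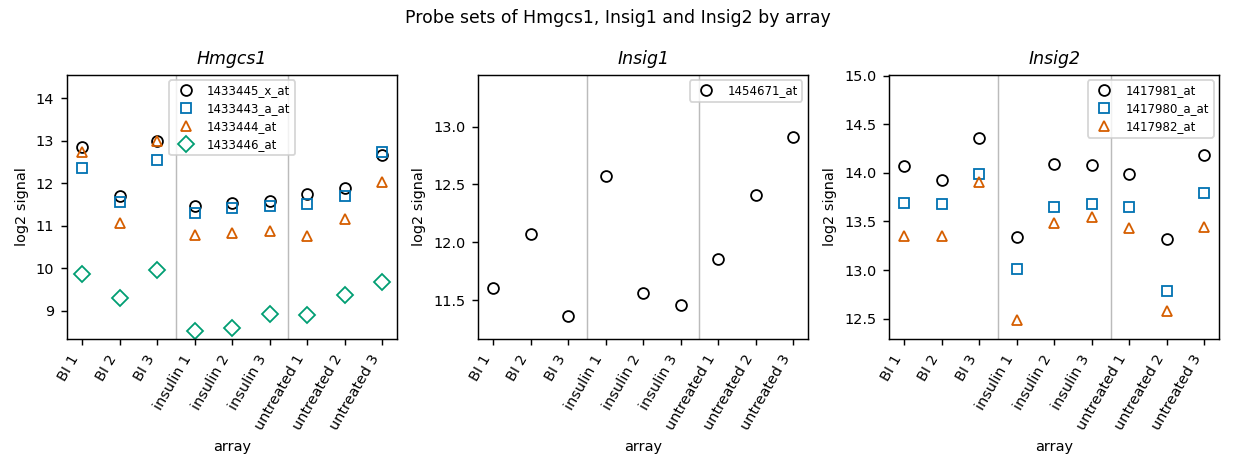
Log2 signal by array (BI left, insulin middle, untreated right) for the probe sets of Hmgcs1, Insig1 and Insig2 with a mean level above 7, each marker a probe set. Hmgcs1 is high on BI replicates 1 and 3 in each of its 4 probe sets, and the 3 Insig2 probe sets are lowest on insulin replicate 1 and untreated replicate 2.

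The 3 enzymes from squalene to lanosterol had lower means in each treated group, and none passed the test. Without untreated replicate 3 Fdft1 was at 0.08 in BI against untreated and Sqle at -0.06 in insulin against untreated. Sqle, the epoxidase of squalene and a step at which flux is controlled, had 5.81, 5.65 and 6.11 with BI and 6.21, 6.25 and 6.11 with insulin, against 5.81, 6.69 and 8.20 without treatment. Untreated replicate 3 was 1.51 above the next array, whereas untreated replicate 1 was within the range of the BI arrays. On the BI arrays, insulin replicate 3 and untreated replicate 1 the signal of Sqle lay at or below the lowest array median (6.11). Whether it is above background there is not known. Lss, which folds the epoxide into lanosterol, averaged 8.74 ± 0.07 with BI and 8.87 ± 0.42 with insulin, against 9.28 ± 0.58 without treatment (SD, n = 3 each). Fdft1, the squalene synthase, had 10.92, 11.36 and 10.90 with BI and 10.83, 10.73 and 10.83 with insulin, against 10.86, 11.09 and 11.73 without treatment. Its insulin arrays lay below the untreated ones (-0.43 ± 0.26).

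A pair of dimmer Fdft1 probe sets ran the other way. One had 4.32, 6.10 and 6.04 with BI and 5.93, 4.80 and 5.46 with insulin, against 3.05, 3.79 and 3.52 without treatment. All 6 treated arrays were above all 3 untreated ones, by 2.03 ± 0.53 with BI (adjusted p 0.830) and 1.94 ± 0.53 with insulin (adjusted p 0.995). The other gave 1.63 ± 0.73 and 2.35 ± 0.73. These signals lie below the lowest array median of 6.11, and no background measure was used to say whether they are above background. When a gene's probe sets were averaged, Fdft1 was accordingly at 0.78 with BI and 0.84 with insulin.

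No post-lanosterol enzyme passed the test. In BI against untreated all 9 were lower by their means (median -0.53), and in insulin against untreated 8 of 9 (median -0.51). Without untreated replicate 3 the count was 8 of 9 in both and the median -0.18 in both, with Tm7sf2 then at 0.10 in BI against untreated. Cyp51, the lanosterol demethylase, had 8.34, 8.38 and 8.11 with BI and 8.48, 7.99 and 8.35 with insulin, against 8.11, 9.34 and 10.39 without treatment. Msmo1, which oxidizes methyl groups of the sterol ring, had 9.39, 9.07 and 8.89 with BI and 9.25, 8.68 and 8.76 with insulin, against 9.31, 10.24 and 11.22 without treatment. For both genes untreated replicates 2 and 3 were above all treated arrays and untreated replicate 1 was level with them. In insulin and BI together against untreated the difference of Msmo1 was -1.25 ± 0.40, with a limma adjusted p of 0.990, the smallest among the brightest probe sets of the members. A dim Fdft1 probe set (0.830) and another Hsd17b7 probe set (0.944) had smaller ones.

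Dhcr7, the reductase of the last step to cholesterol, was the only member, by the brightest probe set of each, whose 6 treated arrays all lay below its 3 untreated ones. It had 9.96, 10.13 and 9.78 with BI and 10.08, 9.94 and 10.09 with insulin, against 10.37, 10.41 and 11.62 without treatment. Its log2 difference was -0.84 ± 0.34 with BI and -0.76 ± 0.34 with insulin, and -0.43 ± 0.19 and -0.36 ± 0.19 without untreated replicate 3. Hsd17b7, a keto reductase of the sterol ring, had 10.29, 10.40 and 10.03 with BI and 10.65, 10.57 and 10.35 with insulin, against 10.63, 10.78 and 11.23 without treatment. The BI arrays lay below the untreated ones (-0.64 ± 0.22, limma adjusted p 0.999), and 2 further Hsd17b7 probe sets with a mean level above 7 did so too (-0.35 ± 0.18 and -0.93 ± 0.25). In the second of these all 6 treated arrays were below the untreated ones, and untreated replicate 3 was its lowest untreated array. A dimmer Hsd17b7 probe set, with a mean level of 6.09, ran the other way by its means. It had 6.21, 6.15 and 6.29 with BI against 5.98, 5.80 and 6.20 without treatment.

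Nsdhl, the dehydrogenase that removes a carboxyl group from the ring, had 9.25, 9.59 and 9.64 with BI and 9.51, 9.46 and 9.58 with insulin, against 9.14, 9.98 and 10.96 without treatment. Sc5d, a desaturase, had 12.35, 12.20 and 12.03 with BI and 12.36, 12.19 and 11.98 with insulin, against 12.23, 12.48 and 13.33 without treatment. Untreated replicate 1 was below every treated array for Nsdhl and inside the treated range for Sc5d. Ebp, a sterol isomerase, had 13.12, 13.26 and 13.07 with BI and 13.25, 13.02 and 13.35 with insulin, against 13.28, 13.38 and 13.41 without treatment. Tm7sf2 and Lbr both reduce the same double bond of the ring, and their differences in BI against untreated were -0.30 ± 0.34 and -0.22 ± 0.20. Untreated replicate 3 stood 1.04 above the next array for Tm7sf2 and 0.17 above it for Lbr.

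**Figure D3:**
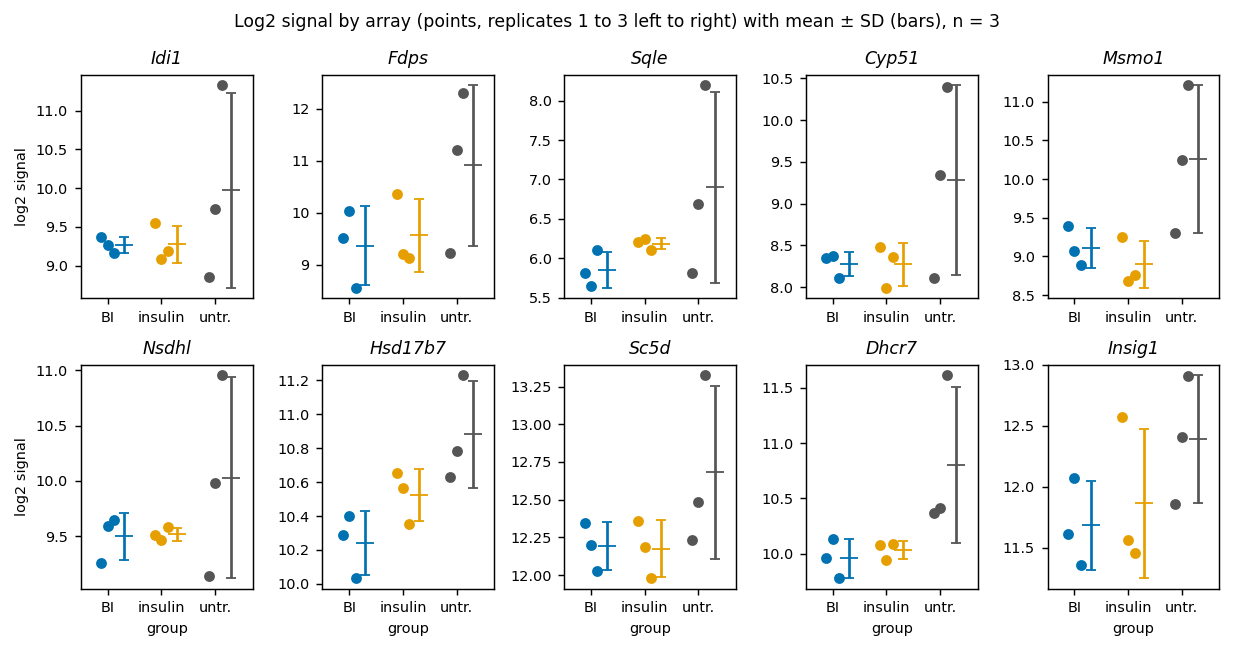
Log2 signal of the 10 members with the largest difference between both treated groups and untreated liver, by group (BI blue, insulin orange, untreated grey), with points for replicates and bars for mean ± SD (n = 3). Untreated replicate 3 is the highest point for each gene, and untreated replicate 1 lies within or below the treated range for all but Dhcr7.

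Of the genes that sense sterols, Insig1 followed the enzymes and the others did not. Insig1 had 11.61, 12.08 and 11.36 with BI and 12.57, 11.56 and 11.46 with insulin, against 11.85, 12.41 and 12.91 without treatment. Insulin replicate 1 was the one treated array above untreated replicate 2, and the differences were -0.71 ± 0.40 with BI and -0.53 ± 0.40 with insulin. Insig2 had 14.07, 13.93 and 14.36 with BI and 13.34, 14.09 and 14.08 with insulin, against 13.98, 13.32 and 14.18 without treatment. Its lowest arrays, insulin replicate 1 and untreated replicate 2, were among the highest for Insig1. Over the 9 arrays Insig1 and Insig2 correlated at r = -0.54, and at r = -0.95 over the 8 without untreated replicate 3, on which both were high. This was not particular to Insig1. Over those 8 arrays Insig2 had r = -0.94 with Lss and -0.93 with Fdps, though 0.49 with each of Hmgcs1 and Ggps1. These r values describe arrays that share a scaling and carry no test. Srebf2, the gene of SREBP2 itself, stood at -0.20 ± 0.32 with BI and 0.04 ± 0.32 with insulin, and Scap, its escort, at -0.17 ± 0.20 and -0.24 ± 0.20.

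Among genes of sterol transport and receptor turnover no member passed either. Stard4, a soluble sterol carrier, had 9.69, 10.24 and 9.92 with BI and 10.56, 9.60 and 9.58 with insulin, against 9.97, 9.85 and 10.93 without treatment. Npc2, which hands cholesterol over inside the lysosome, had 12.40, 12.26 and 12.15 with BI and 12.10, 12.39 and 12.21 with insulin, against 11.98, 12.54 and 12.63 without treatment. In both the groups overlapped, and without untreated replicate 3 Stard4 was at 0.04 with BI and 0.00041 with insulin. Npc1, the membrane partner of Npc2, was at -0.21 ± 0.23 with BI and -0.22 ± 0.23 with insulin. Mylip, a ubiquitin ligase that marks lipoprotein receptors for breakdown, was higher by its means, at 0.14 ± 0.27 and 0.46 ± 0.27.

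Tests over all probe sets called no member. All 9 arrays entered one limma fit, with Benjamini-Hochberg adjustment over 45037 probe sets and a threshold of 0.05. In BI against untreated 0 of 28 members passed, where 0.0111% of probe sets passed, and 3 members (Msmo1, Hsd17b7 and Dhcr7) had an unadjusted p under 0.05 with lower values, a level reached by 1.77% of genes in that direction. In insulin against untreated 0 of 28 passed, as did 0% of probe sets, and 1 member (Msmo1) had an unadjusted p under 0.05, against 1.39% of genes that were lower. In BI against insulin 0 of 28 passed and 0% of probe sets, and Hmgcs1 was the 1 member with an unadjusted p under 0.05, higher with BI as were 1.55% of genes. With insulin and BI together against untreated 0 of 28 passed and 0% of probe sets, with 3 members lower at an unadjusted p under 0.05 (Msmo1, Hsd17b7 and Dhcr7), against 1.49% of genes. The F test over the 3 groups called 0% of probe sets.

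By direction alone, 23 of 28 members were lower in BI than in untreated liver, where 49.9% of genes were, with a median log2 difference of -0.22 against 0.00038 over all genes. In insulin against untreated 22 of 28 were lower, where 46.3% of genes were, with a median of -0.38 against 0.02. The BI and insulin comparisons share the 3 untreated arrays, so their like directions are not 2 separate observations. Groups did not overlap, with lower values, for 3 members in BI against untreated (Hsd17b7, Ebp and Dhcr7) where 4.52% of genes did so, and with higher values for 1 (Ggps1) where 4.84% did. They did not overlap, with lower values, for 5 in insulin against untreated (Hmgcs1, Mvk, Fdft1, Msmo1 and Dhcr7) where 3.48% did. In BI against insulin 14 members were lower and 14 higher, where 54.3% of genes were lower, with a median of -0.0035 against -0.03 over all genes. There the groups did not overlap for 1 member that was lower and 3 that were higher, as against 5.68% and 4.2% of genes. With insulin and BI together 24 of 28 members were lower than untreated, where 48.5% of genes were, and Dhcr7 was the 1 member without overlap, against 0.907% of genes. Of 18 further probe sets of 12 members with a mean level of at least 7, 18 had the direction of the brightest one in BI against untreated and 17 in insulin against untreated.

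The size of these differences rested on untreated replicate 3. Without it the median over the members was -0.07 with BI and -0.12 with insulin, with 19 and 20 of 28 lower, while the medians of all genes were 0.01 and 0.03. For insulin and BI together the median was -0.31 with all arrays, -0.08 without untreated replicate 3 and -0.47 without untreated replicate 1, whose low values pull the other way. Without untreated replicate 1 the medians of the separate comparisons were -0.45 with BI and -0.55 with insulin. All 10 members with the largest combined differences still had lower treated means without untreated replicate 3, and each difference shrank by over 1.5 times. Among them Msmo1 was then at -0.77 ± 0.31 and Fdps at -0.75 ± 0.66, and Idi1 at -0.02 ± 0.27.

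**Figure D4:**
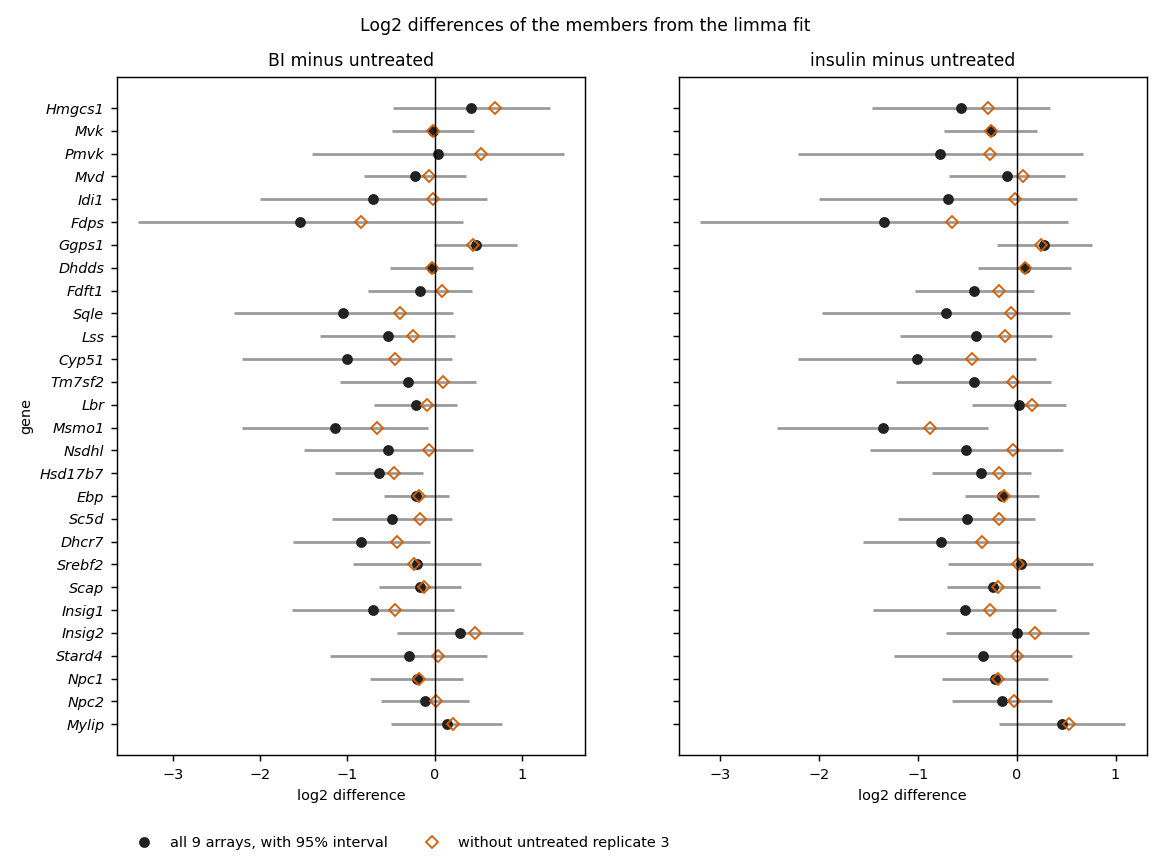
Log2 difference of each member in BI minus untreated (left) and insulin minus untreated (right), with black points for the limma fit, grey lines for 95% intervals and the value without untreated replicate 3 (orange diamonds). Most intervals include 0, and the diamonds lie closer to 0 than the black points for genes such as Idi1, Sqle and Cyp51.

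The members closest to the common pattern were enzymes. Pearson's r of each member with the median of the other members over the 9 arrays was 0.97 for Idi1 and Cyp51, 0.96 for Sc5d, 0.95 for Msmo1 and 0.94 for Lss. It was 0.83 for Insig1 and 0.78 for Stard4, and only 0.30 for Hmgcs1, 0.21 for Mvk and 0.13 for Srebf2. Ggps1 ran against the set at -0.57. Of 378 pairs of members 68 had r above 0.8, with a median over all pairs of 0.35, and without untreated replicate 3 the numbers were 14 pairs and 0.17. Without that array Cyp51 (0.90), Lss (0.88), Fdps (0.87), Msmo1 (0.87), Idi1 (0.81) and Insig1 (0.81) still followed the other members, while Tm7sf2 (0.33) and Fdft1 (0.31) did so less. Insig2, at -0.09 over the 9 arrays, then ran against the other members most strongly, at -0.88, ahead of Ggps1 at -0.51. All points share their arrays and their scaling, so these are descriptions.

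**Figure D5:**
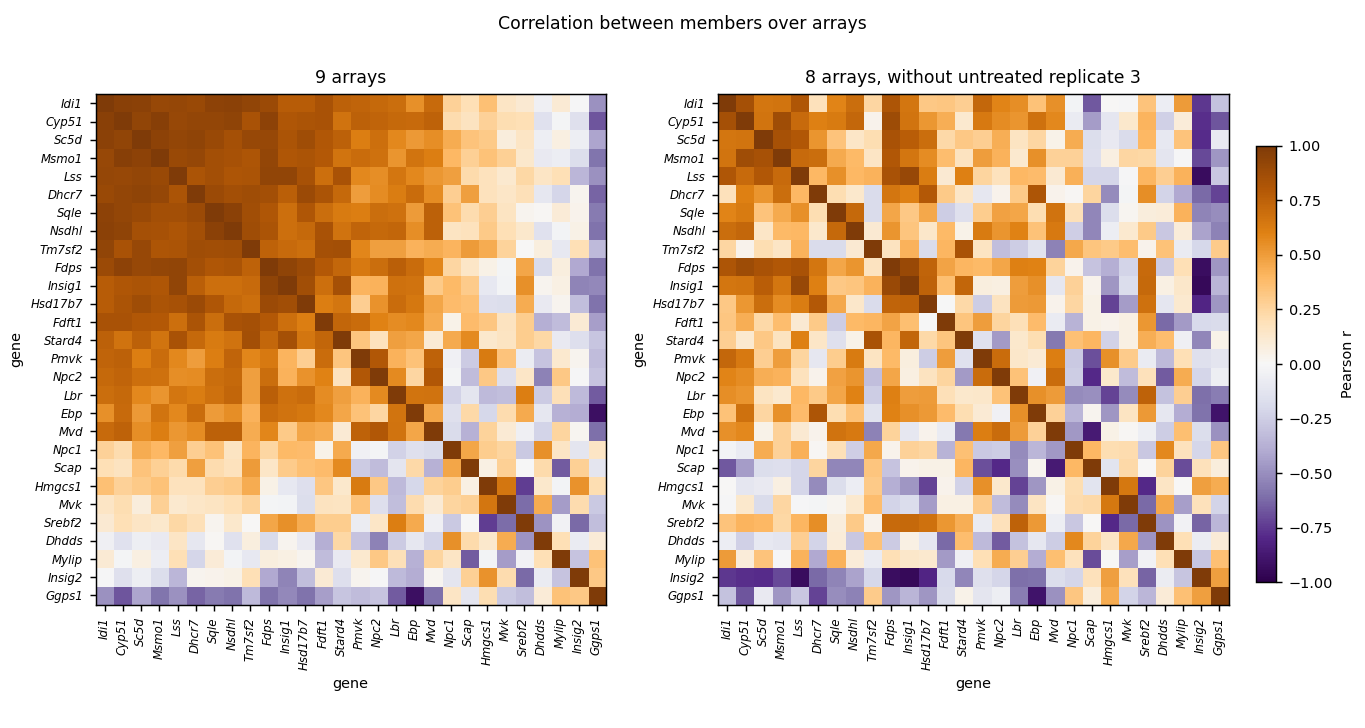
Pearson r between members over 9 arrays (left) and over 8 arrays without untreated replicate 3 (right), with genes ordered by their r to the median of the other members. The orange block of sterol enzymes at the upper left, where pairs exceed 0.8, is paler on the right, where 14 of 378 pairs do.

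Among 10772 genes outside the set, those closest in pattern to the member median were named by a rule of the 8 highest r. Acacb, which makes malonyl-CoA at mitochondria (r = 0.97), Gpam, the first acyltransferase of glycerolipid synthesis (0.96), and Acly, which makes cytosolic acetyl-CoA from citrate (0.93), were among them. Slc25a1, the mitochondrial citrate carrier (0.93), Acsl5, an acyl-CoA synthetase (0.93), Bmt2, Gstm3 and Rasa3 completed the list. Acacb had 7.76, 7.93 and 7.81 with BI and 8.32, 7.18 and 7.97 with insulin, against 7.50, 9.15 and 10.60 without treatment, the same order of untreated arrays as in Cyp51. Without untreated replicate 3 the r was 0.92 for Acacb, 0.89 for Slc25a1 and 0.82 for Bmt2, and it lay between 0.60 (Gstm3) and 0.74 for the other 5.

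Companion lists of neighbouring pathways were described by counts, and no gene of any of them passed in the 4 comparisons. Of 16 genes of SREBP1 and lipogenesis 13 were lower in each of BI and insulin against untreated (medians -0.34 and -0.37), with Fads1, a fatty acid desaturase, at -0.71 and -0.50 and Srebf1, the gene of SREBP1, at 0.33 and 0.29. Without untreated replicate 3 the list had 9 of 16 lower with BI (median -0.05) and 7 of 16 with insulin (0.04), and Fads1 was at -0.46 and -0.24. Without insulin replicate 3 it had 9 of 16 lower with insulin (median -0.03). Fads1 was at -0.42 in BI against untreated without BI replicate 3. Of 8 measured genes of LXR targets and sterol efflux 5 were higher in each comparison (medians 0.13 and 0.31). Mylip, one of the higher genes, is also a member of the set. Abcg1, a sterol exporter, had 9.69, 9.43 and 9.40 with BI and 9.17, 9.74 and 9.54 with insulin, against 8.35, 9.03 and 9.28 without treatment, and its differences of 0.62 and 0.59 became 0.35 and 0.32 without untreated replicate 1. Abcg8, part of the exporter into bile, was at 0.82 with BI and 0.93 with insulin. Its untreated arrays had 10.81, 9.15 and 9.21, the first inside the treated range, and the differences were 1.36 and 1.47 without untreated replicate 1 and 0.53 and 0.64 without untreated replicate 2. The 10 measured genes of SREBP proteolysis and turnover had medians of 0.02 and 0.0040, among them Ufd1 (0.26 and 0.20) and Rnf145 (0.04 and 0.39). The 12 of isoprenoid use had medians of -0.04 and 0.03, among them Rabggta (-0.33 and -0.18) and Dolk (0.13 and 0.11).

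Sterol esterification, uptake and bile acid genes had medians of -0.06 with BI and -0.16 with insulin over 11 measured genes. Cyp7a1, the rate-limiting enzyme of bile acid synthesis, had 10.76, 10.82 and 10.91 with BI and 11.71, 12.14 and 11.31 with insulin, against 11.49, 12.16 and 13.06 without treatment. Each BI array lay below each insulin array and each untreated array, with differences of -0.89 and -1.41. In insulin against untreated Cyp7a1 was at -0.52, and at -0.10 without untreated replicate 3. Tmem97, a sterol-responsive membrane protein, was at -0.58 with BI and -0.50 with insulin, and at -0.38 and -0.31 without untreated replicate 2.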

How the data were processed

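Liver RNA of 9 samples was measured on one-colour Affymetrix arrays with biotin-labelled cRNA, per the labels' protocols. The authors deposited 1 log2 signal for each probe set and array, and their summarization and normalization are not given in the sources used here. Linear signals, trimmed by 2%, averaged 500.004 on every array, and each array had a floor at log2 0, so values were used as deposited. Array medians lay between 6.11 and 6.30, and the number of arrays limits the precision. After 64 control probe sets were left out, 45037 were tested. The platform annotation of 2016 gave 34945 probe sets 1 symbol, 932 several and 9160 none here, and 34741 of the first were matched by gene ID to RefSeq names.

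Groups came from the sample titles. limma 3.58.1 (R 4.3.3; lmFit and eBayes, 6 residual degrees of freedom) was fitted to all arrays with group as the factor, two-sided, and was tested on simulated data. The members were chosen by function and not by these values. Earlier results of these data were nevertheless known when the members, the lists and the tests were chosen. All members are named. Values by array are given for the 10 members with the largest combined difference and, in each role group, for the member with the highest mean and the one with the largest SD. Of the companion lists the 2 genes of smallest p are named, and the genes most similar in pattern are the 8 with the highest r. Genes given values outside this rule (Lss and Ggps1 means, Pmvk ranges and the further probe sets) were chosen after their values were seen. Results were recomputed after leaving out each array of the groups compared in turn (for lists and companion genes, chosen after seeing the data), with the replicate number as a block, with only the groups compared, with the probe sets of a gene averaged, with a filter at the median level of 6.04, with a trend and robust moderation, and after equalizing the medians or the quantiles of the arrays. Over all probe sets, deviations of same-numbered arrays from their group means correlated at -0.03 to 0.04, so the numbers were not taken to pair arrays.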

Additional observations from a re-analysis of the deposited data

How the results depend on the processing

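The median and the number of members lower held their direction in BI, insulin and both together against untreated under every setting tried. Leaving out single arrays gave medians of -0.45 to -0.07 with BI, -0.55 to -0.12 with insulin (the weaker bound of each without untreated replicate 3) and -0.47 to -0.08 with both, and 19 to 24, 20 to 24 and 19 to 25 members lower. In BI against insulin the median ran from -0.11 to 0.11, with 10 to 17 members lower, and was 0.0045 after equalizing quantiles and 0.02 after equalizing medians. No member named with its values passed the threshold in 816 values over 15 settings; 43 of them changed sign, the largest changes being those of Fdft1, Msmo1 and Npc2 with averaged probe sets (Msmo1 0.36 with BI). Probe sets called in BI against untreated numbered 5, and 4 to 6 after equalizing quantiles or medians or with a trend and robust moderation. They numbered 1 with the filter on dim probe sets, 0 with the replicate number as a block, 0 with only the groups compared and 0 without any 1 of the 6 BI and untreated arrays. None was called in insulin, or both together, against untreated under any setting. In BI against insulin 1 was called with the filter, and 0 to 1 when single arrays were left out. The block changed no call of a member. For both groups together, a fit of only the groups compared is the fit used throughout. No detection call was used, so whether dim signals are above background is not known.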
